A study of Mus musculus with 7 samples.

Results

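A set of 10 genes of the extracellular matrix and its remodelling was followed through cryosections of mouse tibialis anterior, the muscle at the front of the lower leg. They were taken as a fixed list of symbols (Timp1, Postn, Tnc, Fn1, Lox, Sparc, Tgfb1, Mmp2, Mmp14 and Fbn1), and all 10 were found among the 53083 genes shared by the 7 tables. RNA was sequenced section by section from 7 muscles, 2 of them labelled WT, 2 Ctr and 3 DMD, the last being the group of the Duchenne muscular dystrophy model named in the series title. Column names in the file headers carry pax7 for WT, hDMD for Ctr and mdx for DMD. The labels explain none of these names and give no age, sex, genotype or treatment, and they do not say whether the muscles came from separate animals, so p-values measure only the spread between these samples. The WT tables had been counted with another annotation than the Ctr and DMD tables, so in every comparison with WT the group and the annotation cannot be told apart.

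Matricellular proteins such as periostin, tenascin-C and SPARC sit in the matrix without building its main fibres and modulate how cells attach, migrate and respond to growth factors. Fibronectin and fibrillin-1 form fibrils that store latent TGF-beta, lysyl oxidase crosslinks collagen and elastin, matrix metalloproteinases cut matrix proteins, and TIMP-1 inhibits those proteases. In skeletal muscle these proteins come mostly from fibroblasts, fibro-adipogenic progenitors, macrophages and tendon cells, and their accumulation is a known feature of fibrosis in dystrophic muscle.

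Of 525 sections, 422 were used, and the kept sections of a muscle held 11181994 to 41407203 counts. The median section held 162467 to 654073 counts. Dmd, the dystrophin gene, was at 16.3 and 13.2 CPM in WT, 9.56 and 15.9 CPM in Ctr, and 9.25, 14.8 and 9.85 CPM in DMD, with a log2 fold of -0.18 ± 0.29 between DMD and Ctr (edgeR, adjusted p = 0.711), so its transcript level did not separate the labels and checks none of them. The tissue was muscle by its defining genes: the summed level of 8 adult fibre genes was 87081 to 166012 unscaled CPM in every muscle.

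The 3 members with the largest differences between DMD and Ctr were Timp1, Postn and Tnc, and their promoters are shown because these transcripts were the lowest in the Ctr muscles relative to DMD. Each line gives the 250 bases before a RefSeq start (assembly GRCm38.p6, 5′ to 3′ on the gene's strand): Timp1 at chrX:20869916-20870165 (plus strand), Postn at chr3:54360857-54361106 (plus strand) and Tnc at chr4:64047016-64047265 (minus strand). Capitals mark matches, on either strand, to 5 short motifs: the AP-1 motif TGANTCA, the SMAD motif CAGACA, the TEAD motif GGAATG, the TATA box motif TATAAA and the GC box motif GGGCGG.
Timp1: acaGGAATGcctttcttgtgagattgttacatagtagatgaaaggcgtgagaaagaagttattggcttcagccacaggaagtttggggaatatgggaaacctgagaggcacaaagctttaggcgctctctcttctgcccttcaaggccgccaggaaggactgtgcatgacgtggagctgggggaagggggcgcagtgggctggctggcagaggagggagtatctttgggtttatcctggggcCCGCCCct
Postn: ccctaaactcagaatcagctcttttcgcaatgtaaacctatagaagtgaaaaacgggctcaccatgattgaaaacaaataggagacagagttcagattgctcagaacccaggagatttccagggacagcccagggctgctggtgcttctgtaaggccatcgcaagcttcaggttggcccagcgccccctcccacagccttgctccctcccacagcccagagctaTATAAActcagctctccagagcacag
Tnc: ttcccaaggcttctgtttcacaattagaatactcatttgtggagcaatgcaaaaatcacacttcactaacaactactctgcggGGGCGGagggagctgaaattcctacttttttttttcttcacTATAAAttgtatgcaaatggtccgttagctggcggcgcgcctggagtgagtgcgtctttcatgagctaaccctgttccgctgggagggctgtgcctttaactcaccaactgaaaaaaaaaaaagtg
Promoter windows of 300 bases, reaching 50 bases past the start, were matched by symbol and scanned for 7 members. Lox, Fn1 and Mmp2 were not scanned. TATAAA stood in the windows shown for Postn and Tnc, and in 13.6% of all 32851 windows of the table. GGAATG stood in the window shown for Timp1 (14.7% of all windows) and GGGCGG in those of Timp1 and Tnc (35.7%). CAGACA matched the Tnc window past its start (21% of all windows), and TGANTCA, found in 7.81% of all windows, was not among the letters of any scanned member window. These matches are a description of letters and not of binding.

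The first comparison asked how the 10 transcripts differ between whole dystrophic and Ctr muscles. Of the members, 6 were higher in DMD: the protease inhibitor Timp1 (44.1-fold), the matricellular genes Postn (25.1-fold) and Tnc, the scaffold genes Fn1 (6.67-fold) and Fbn1 (3.67-fold), and the gelatinase gene Mmp2 (2.89-fold). None was lower (5.49% of all genes tested were), and Lox, Sparc, Tgfb1 and Mmp14 did not pass an adjusted p of 0.05. Of all 13746 genes tested, 7.17% were called higher in DMD, and the median log2 fold was 1.93 for the 10 members and 0.02 for all genes. The members were chosen with earlier results of these data known, so their contrasts with all genes, here and below, are descriptions. The call depended on 1 Ctr muscle: without Ctr replicate 1 only Timp1 was still called (edgeR quasi-likelihood test, adjusted p = 0.0203), with adjusted p of 0.122 for Postn, 0.150 for Tnc, 0.118 for Fn1, 0.171 for Mmp2 and 0.205 for Fbn1. Without that muscle 56 genes were called in all, against 1740 with it. In whole muscles, a larger number of cells of a type and more RNA per cell cannot be told apart.

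**Figure D1:**
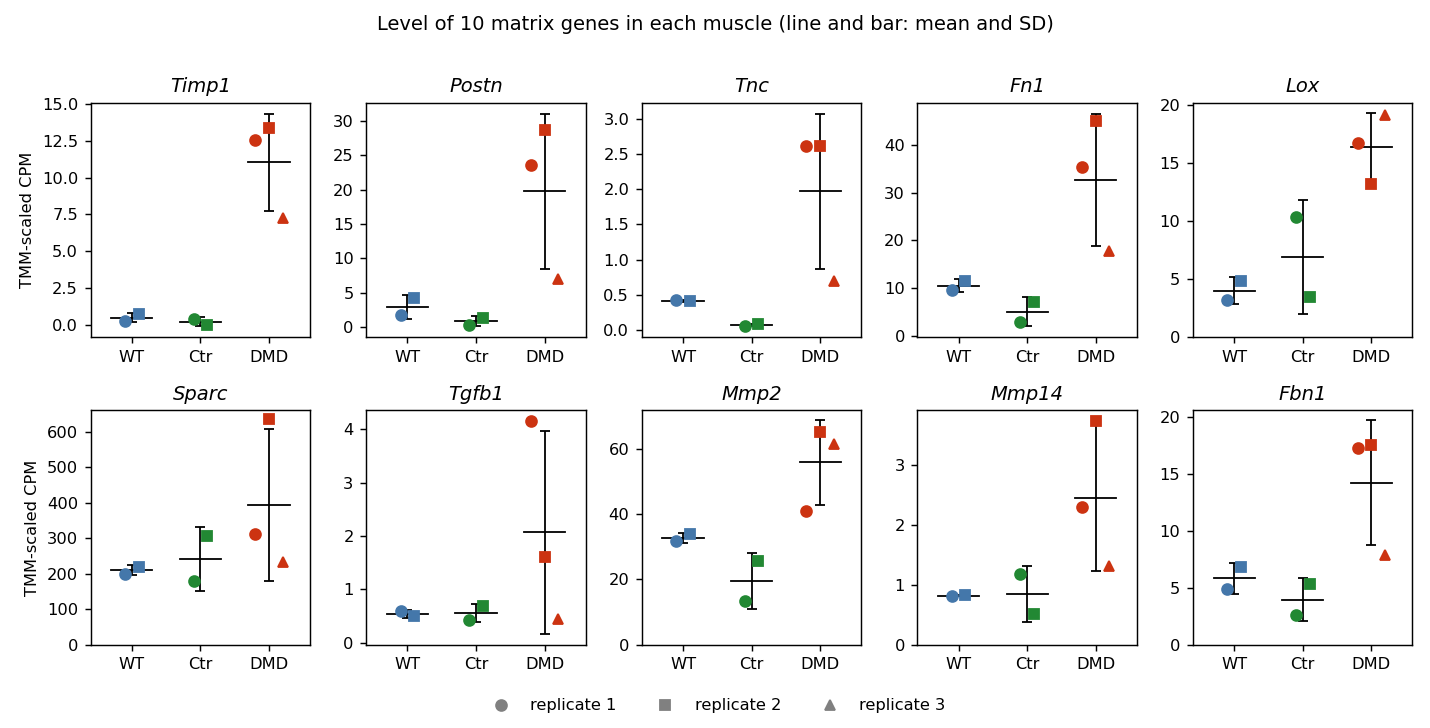
TMM-scaled CPM (y axis, linear) of the 10 genes in each of the 7 muscles, by group (x axis). Points are muscles with their replicate number by shape, and the line and bar are mean and SD (n = 2, 2 and 3). All 3 DMD muscles sit above both Ctr muscles for 8 genes, the exceptions being Sparc and Tgfb1.

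Levels are given as CPM, a gene's counts as a share of all counts of the muscle scaled to 1000000 and corrected by TMM factors, in the order of the replicate numbers. They count tags per transcript and are not set between genes. Among the inhibitors and proteases, Timp1 encodes a secreted inhibitor of most metalloproteinases (GRCm38 chrX:20870166-20874735). Its level was 0.269 and 0.737 CPM in WT, 0.432 and 0 CPM in Ctr, and 12.5, 13.4 and 7.28 CPM in DMD. Ctr replicate 2 held no Timp1 count, which allows up to 0.255 CPM (3 counts, counting error only). The DMD muscles were far above all 4 others, and the log2 fold over Ctr was 5.46 ± 0.66 (SE, edgeR, adjusted p = 0.00394). Timp1 counts were found in 100%, 83.6% and 91.7% of the sections of the DMD muscles, against 6% and 12.5% in WT and 9.84% in Ctr replicate 1. In Ctr replicate 2, 0 of 55 sections held a Timp1 count, which allows a share of up to 5.45%.

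Mmp2 encodes a gelatinase that cuts denatured and basement-membrane collagen (chr8:92827291-92853420). Its level was 31.7 and 33.7 CPM in WT, 13.3 and 25.5 CPM in Ctr, and 40.9, 65.1 and 61.5 CPM in DMD. The DMD muscles lay above all others, and the WT muscles above both Ctr muscles. The log2 fold of DMD over Ctr was 1.53 ± 0.31 (edgeR, adjusted p = 0.0182). Mmp14 encodes a membrane-bound metalloproteinase that activates the MMP-2 proenzyme (chr14:54431612-54445364). Its level was 0.808 and 0.819 CPM in WT, 1.17 and 0.511 CPM in Ctr, and 2.3, 3.74 and 1.31 CPM in DMD, without overlap but with DMD replicate 3 close to Ctr replicate 1. The log2 fold of 1.47 ± 0.51 over Ctr did not pass (edgeR, adjusted p = 0.0859).

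Of the matricellular genes, Postn encodes periostin, which binds integrins and helps collagen fibrils assemble (chr3:54361109-54391037). Its level was 1.67 and 4.18 CPM in WT, 0.308 and 1.36 CPM in Ctr, and 23.5, 28.7 and 6.98 CPM in DMD. DMD replicate 3 was the lowest of its group and still above every WT and Ctr muscle. The log2 fold over Ctr was 4.65 ± 0.79 (edgeR, adjusted p = 0.0113). Tnc encodes tenascin-C, a large glycoprotein of developing and injured tissue (chr4:63959785-64047015). Its level was 0.431 and 0.41 CPM in WT, 0.0617 and 0.0851 CPM in Ctr, and 2.61, 2.61 and 0.698 CPM in DMD. The Ctr values rest on 1 count in each muscle, 2 in all, against 207 in the DMD muscles, a pooled ratio of 30.1 with a 95% exact counting interval of 8.22 to 250.03. That interval leaves out the spread between muscles, and 152 of the DMD counts came from replicate 1. The log2 fold over Ctr, with muscles as replicates, was 4.68 ± 0.87 (edgeR, adjusted p = 0.0145). Sparc encodes a collagen-binding glycoprotein also called osteonectin (chr11:55394500-55423183). Its level was 199 and 219 CPM in WT, 178 and 305 CPM in Ctr, and 311, 635 and 234 CPM in DMD. DMD replicate 3 lay between the Ctr muscles, so these groups overlapped, and the log2 fold was 0.70 ± 0.40 (edgeR, adjusted p = 0.265).

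Among the scaffold genes, Fn1 encodes fibronectin, on which collagen and fibrillin assemble (chr1:71585520-71653200). Its level was 9.48 and 11.5 CPM in WT, 2.84 and 7.15 CPM in Ctr, and 35.5, 45.2 and 17.7 CPM in DMD. All DMD muscles were above the others, and the log2 fold over Ctr was 2.74 ± 0.47 (edgeR, adjusted p = 0.012). Fbn1 encodes fibrillin-1, the core of microfibrils (chr2:125300594-125507993). Its level was 4.85 and 6.8 CPM in WT, 2.59 and 5.28 CPM in Ctr, and 17.2, 17.5 and 7.89 CPM in DMD, again without overlap and with DMD replicate 3 lowest. The log2 fold was 1.87 ± 0.42 (edgeR, adjusted p = 0.0253). This call was also lost without DMD replicate 1 (adjusted p = 0.0674) or DMD replicate 2 (adjusted p = 0.0576).

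Lox encodes lysyl oxidase, which starts collagen and elastin crosslinks (chr18:52516067-52529867). Its level was 3.18 and 4.83 CPM in WT, 10.4 and 3.41 CPM in Ctr, and 16.7, 13.2 and 19.1 CPM in DMD. The groups did not overlap, but the Ctr muscles differed widely and the log2 fold of 1.23 ± 0.40 did not pass (edgeR, adjusted p = 0.0698). Lox was the member for which DMD replicate 3 was the highest DMD muscle. Tgfb1 encodes the cytokine TGF-beta 1, which induces many matrix genes (chr7:25687002-25705077). Its level was 0.592 and 0.491 CPM in WT, 0.432 and 0.681 CPM in Ctr, and 4.15, 1.6 and 0.436 CPM in DMD. The DMD muscles spanned the whole range, with replicate 3 at the level of the Ctr muscles on 10 counts, and the log2 fold was 1.98 ± 0.83 (edgeR, adjusted p = 0.138).

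Counted over the members, all 3 DMD muscles lay above both Ctr muscles for 8 of 10 genes, where 23.8% of all genes tested showed the same. The exceptions were Sparc and Tgfb1. All members except Lox and Mmp2 had their lowest DMD level in replicate 3. Within DMD, the summed levels of macrophage and of fibroblast marker genes were also lowest in replicate 3. This was not particular to them: unscaled sums of tendon, endothelial, smooth-muscle and pericyte, and Schwann-cell markers were lowest there too. With TMM scaling the Schwann-cell sum stayed lowest in replicate 3, while the tendon, endothelial and smooth-muscle sums were lowest in replicate 1. The macrophage sum was highest in replicate 1, and the fibroblast sum, like most members, in replicate 2. The sum over 12 macrophage markers was 1447, 1261 and 223 unscaled CPM in DMD replicates 1 to 3, against 67.7 to 113.6 in the 4 WT and Ctr muscles. With TMM scaling, as for the members' levels, it was 1026, 941 and 227 CPM against 73.1 to 118.2, and 11 of the 12 were called higher in DMD than in Ctr. The sum over 10 fibroblast markers was 1544, 2212 and 1052 in DMD and 753 to 957 in the others, with 2 of 10 called higher (Dpt and Lum). On the TMM scale these groups overlapped, at 1095, 1651 and 1070 CPM in DMD and 825 to 1126 in the others. Tendon markers were low in Ctr, at 6.16 and 12.7 with Mkx at 0 in both, against 29.5 and 34.3 in WT and 27.8 to 46.6 in DMD, and 5 of the 7 tested were called higher in DMD than in Ctr. On the TMM scale the tendon sum was lower in every DMD muscle (25.6, 34.8 and 28.3 CPM) than in both WT muscles (36.7 and 51.3), and of the 7 genes 1, Comp, was called higher and 1, Fmod, lower in DMD than in WT. Regenerating-fibre markers were at 482, 1342 and 557 in DMD and 67.1 to 183.5 in the others, with 7 of 8 called higher. Macrophages, fibroblasts and tendon cells are known to express matrix genes, and the part of these cell-type differences in the member differences was not tested. The 6 endothelial markers had no called gene, and of 7 Schwann-cell markers 1 was called higher and 2 lower.

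The second comparison set the same DMD muscles against WT. Because both comparisons share the DMD muscles, their values stand side by side and are no separate evidence. Of the members, 5 were called higher in DMD, again with none lower, where 8.25% of genes were called higher and 6.92% lower. They were Timp1 (log2 fold 4.55 ± 0.59, edgeR, adjusted p = 0.00383), Postn (2.80 ± 0.66, adjusted p = 0.0248), Tnc (2.22 ± 0.62, adjusted p = 0.0415), Fn1 (1.65 ± 0.44, adjusted p = 0.0346) and Lox (2.05 ± 0.42, adjusted p = 0.0176). Fbn1, Mmp14, Mmp2, Sparc and Tgfb1 did not pass, with log2 folds of 0.77 to 1.97 and adjusted p of 0.0557 to 0.150. The median log2 fold was 1.81 over the members and 0.07 over all genes, and all DMD muscles lay above both WT muscles for 9 of 10 members (26.7% of genes), the exception being Tgfb1. No member was called without WT replicate 1 (Timp1, adjusted p = 0.0688), and only Timp1 without WT replicate 2 (adjusted p = 0.0461). Without DMD replicate 1 or DMD replicate 2 there were 2 calls, Timp1 and Lox, and without DMD replicate 3 there were 9. The call of Tnc was lost under 7 of 15 alternatives, among them only the compared groups (edgeR, adjusted p = 0.0533) and leaving out Ctr replicate 1 (0.0529) or Ctr replicate 2 (0.0517).

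**Figure D2:**
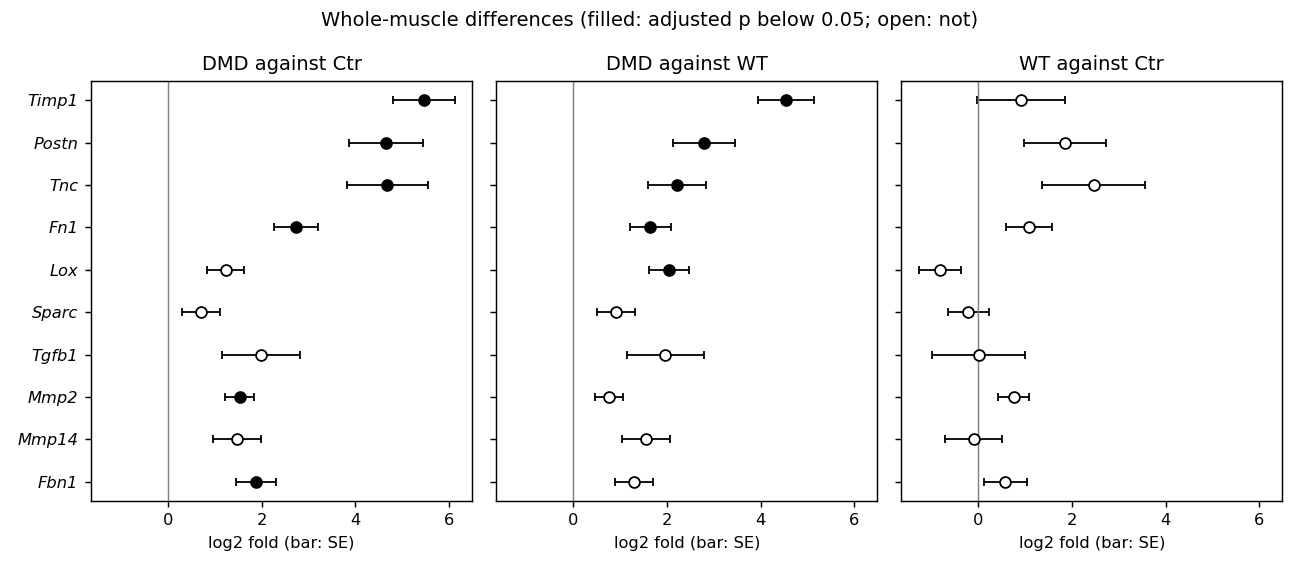
Log2 fold (x axis) of each member in the 3 whole-muscle comparisons, with its SE as a bar. Filled points passed an adjusted p of 0.05, and open points did not: 6 genes in DMD against Ctr, 5 in DMD against WT and 0 in WT against Ctr passed.

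Between WT and Ctr, 0 of 10 members were called by edgeR, by DESeq2 or by limma on equally weighted sections, where edgeR called 0.364% of all genes, and 3 had an unadjusted p under 0.05 (Tnc, Mmp2 and Fn1). Without a filter on low counts, or with the replicate number as a block, 2 members were called. Postn, Tnc, Fn1 and Mmp2 were higher in both WT muscles than in both Ctr muscles, a pattern that 27.2% of genes showed. Their log2 folds were 1.86 ± 0.87 for Postn, 2.47 ± 1.10 for Tnc, 1.09 ± 0.49 for Fn1 and 0.76 ± 0.33 for Mmp2 (edgeR, adjusted p of 0.262 to 0.298). Of these 4, Mmp2 was also not called between DMD and WT (log2 fold 0.77, edgeR, adjusted p = 0.107).

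The rest of the pathway was described through 8 lists of other genes, taken whole, whichever way their genes moved. These lists were also chosen with earlier results of these data known, so their counts are no independent test. Collagens were the list with the most calls: 15 of 16 were higher in DMD than in Ctr and none lower, with a median log2 fold of 2.53. Col3a1, a fibrillar collagen of loose connective tissue, was at 8.57 and 27.6 CPM in Ctr and 229, 237 and 109 CPM in DMD (log2 fold 3.42 ± 0.53). Col1a1 (3.23 ± 0.58), Col5a2 (2.88 ± 0.36) and Col1a2 (2.71 ± 0.49), which form or initiate type I fibrils, were the next. Against WT, 6 of 16 were called higher, and Col1a1 and Col1a2 were not (edgeR, adjusted p of 0.0720 and 0.0583).

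Of 26 other proteases tested, 11 were higher and 1, Adamts8, was lower, with a median log2 fold of 1.60. Adam19 (log2 fold 2.41 ± 0.39), a sheddase, and the aggrecanase gene Adamts5 (1.72 ± 0.36) had the largest folds among those named, followed by the procollagen N-proteinase gene Adamts2 (1.10 ± 0.31) and Htra3 (1.01 ± 0.25). Of 9 other inhibitors, 3 were higher than in Ctr, among them Serpinf1 (1.63 ± 0.38) and Timp2 (1.28 ± 0.26), and 2 were lower, Timp4 (-1.48 ± 0.29) and Timp3 (-0.85 ± 0.21). Against Ctr, Timp1 and Timp2 rose in DMD while Timp3 and Timp4 fell, directions that held under every scaling tried, although Timp3 and Timp4 missed the threshold with sections weighted equally (limma, adjusted p of 0.112 and 0.0511). Timp4 was at 27.1 and 16.1 CPM in Ctr and 6.6, 6.75 and 9.94 CPM in DMD, and at 16.9 and 11.96 CPM in WT, against which it did not pass (edgeR, adjusted p = 0.0619). Timp3 did not pass against WT either (log2 fold -0.42, edgeR, adjusted p = 0.203), and in that comparison 3 of the 9 inhibitors were higher and none lower.

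In the crosslinking and collagen-processing list, 8 of 17 were higher and 1, P4ha2, was lower. The named genes were Pcolce, an enhancer of procollagen C-proteinase (log2 fold 1.72 ± 0.42), the prolyl 3-hydroxylation partner Crtap (1.55 ± 0.28), the lysyl oxidase relative Loxl1 (1.48 ± 0.30) and the collagen chaperone Serpinh1 (1.20 ± 0.25). Loxl1 was at 6.48 and 6.22 CPM in Ctr and 16.8, 24.5 and 12.03 CPM in DMD, and also passed against WT (1.62, adjusted p = 0.0128, edgeR). So Loxl1 passed both comparisons, and Lox passed that with WT alone.

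Of 26 other matricellular genes, 11 were higher and 1, Spock2, was lower. Spp1, osteopontin, was at 0.247 and 0.255 CPM in Ctr and 40.6, 12.2 and 1.44 CPM in DMD (log2 fold 6.16 ± 1.45). Lgals3, galectin-3, was at 2.53 and 1.96 CPM in Ctr and 138, 102.1 and 12.4 CPM in DMD (5.22 ± 0.92). Both are genes that macrophages express, and their lowest DMD level was also in replicate 3. Tgfbi (1.81 ± 0.32) and Ecm1 (1.41 ± 0.32) had smaller differences. Of 13 elastic-fibre genes 5 were higher and none lower, among them Mfap5, a microfibril protein (1.498 ± 0.39). Of 20 matrix receptors 7 were higher and none lower, led by the hyaluronan receptor gene Cd44 (2.99 ± 0.63), with Sdc3 (1.61 ± 0.38), the laminin-binding integrin gene Itga7 (0.97 ± 0.21) and the collagen-sensing kinase gene Ddr1 (0.89 ± 0.26).

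In the TGF-beta pathway list, which holds other ligands, receptors and SMADs, 1 of 23 genes was higher and 2 were lower than in Ctr, where 7.17% and 5.49% of all genes were, and the median log2 fold was 0.14. Nrros, which anchors latent TGF-beta on macrophages and microglia, was at 3.82 and 5.36 CPM in Ctr and 32.0, 24.4 and 7.15 CPM in DMD (2.22 ± 0.54). Mstn, myostatin, a muscle-made ligand of the family that limits muscle growth, fell by 2.01 ± 0.35 on the log2 scale, from 21.2 and 15.2 CPM in Ctr to 4.94, 2.27 and 6.15 CPM in DMD. Smad6, an inhibitory SMAD, was the other lower gene. Without Ctr replicate 1 none of the 27 genes named here by size of fold stayed called, and all kept their direction.

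**Figure D3:**
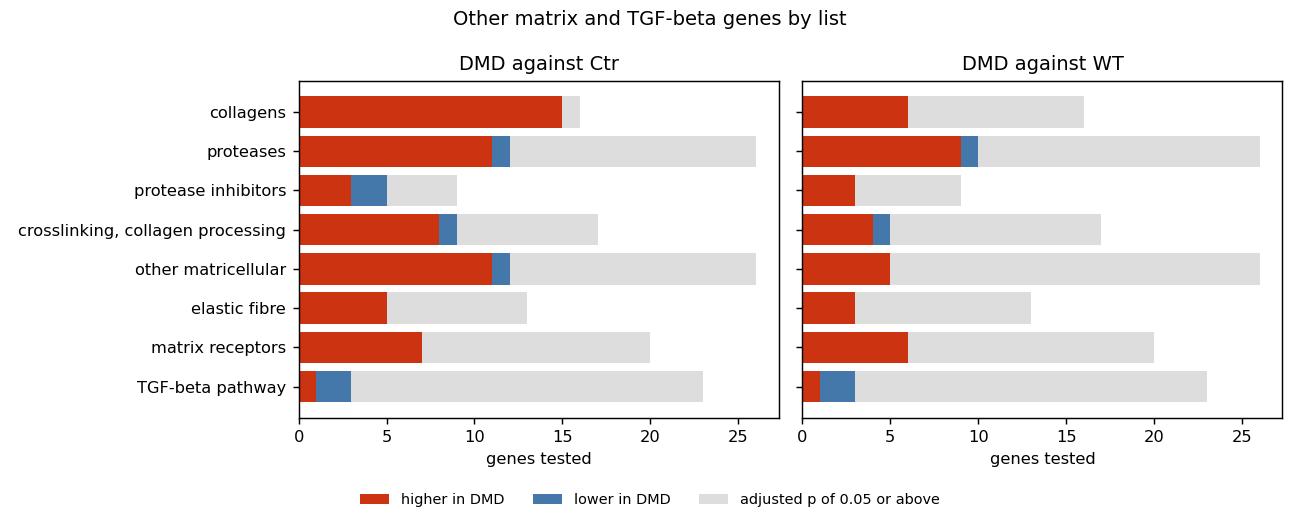
Number of genes tested in each list (x axis) that were higher in DMD (red), lower (blue) or at an adjusted p of 0.05 or above (grey), against Ctr and against WT. Collagens had 15 of 16 higher against Ctr and 6 of 16 against WT, and the TGF-beta pathway list had 1 higher and 2 lower of 23 in each.

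Position inside the muscle was described by the section number in the column names, taken as the order of cutting, which the labels do not state. Neither end is named, and nothing says that the order runs the same way in every muscle. The kept sections of each muscle were divided into 3 equal segments (first, middle and last), compared within muscles, and into 10 equal bins. Between neighbouring sections, Pearson's r of Sparc was 0.84, 0.44 and 0.028 in the DMD muscles, 0.45 and 0.27 in the WT muscles and 0.15 and 0.29 in the Ctr muscles. Over the 10 members and 7 muscles it ran from -0.18 to 0.84, with a median of 0.091.

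Between the last and the first segment, over the mean of the 3 groups, Mmp2 was the 1 member of 10 called (log2 fold 0.31 ± 0.08, edgeR, adjusted p = 0.0271), where 3.11% of 12085 genes were called and 1.02% called higher. From first to last segment, Mmp2 went from 26.0 to 38.6 and from 32.0 to 37.2 CPM in the WT muscles, and from 12.2 to 15.2 and from 21.1 to 29.2 CPM in the Ctr muscles. In the DMD muscles it went from 41.5 to 46.6, from 66.0 to 67.3 and from 59.5 to 65.9 CPM. The last segment was the higher in 7 of 7 muscles, by little in DMD replicate 2. The call was lost without WT replicate 1 (adjusted p = 0.347), WT replicate 2 (0.068), Ctr replicate 1 (0.164) or Ctr replicate 2 (0.285), and without the filter on low counts (0.0521). Sparc had a like difference that did not pass (0.25 ± 0.08, edgeR, adjusted p = 0.0736), with the last segment higher in 6 of 7 muscles. It passed without DMD replicate 2 (adjusted p = 0.0347) and without DMD replicate 3 (adjusted p = 0.0138). Over the bins, Sparc was higher with position in all 4 WT and Ctr muscles, with Spearman's rho of 0.71 to 0.83 over 10 bins, and in DMD replicate 1 (0.84), but not in DMD replicates 2 and 3 (0.13 and 0.079). Mmp2 had rho of 0.70 to 0.81 in 5 muscles, and 0.31 and 0.30 in Ctr replicate 1 and DMD replicate 2. The bins are in unscaled CPM. The share of all genes with such a rho, or with a higher last segment in as many muscles, was not counted.

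**Figure D4:**
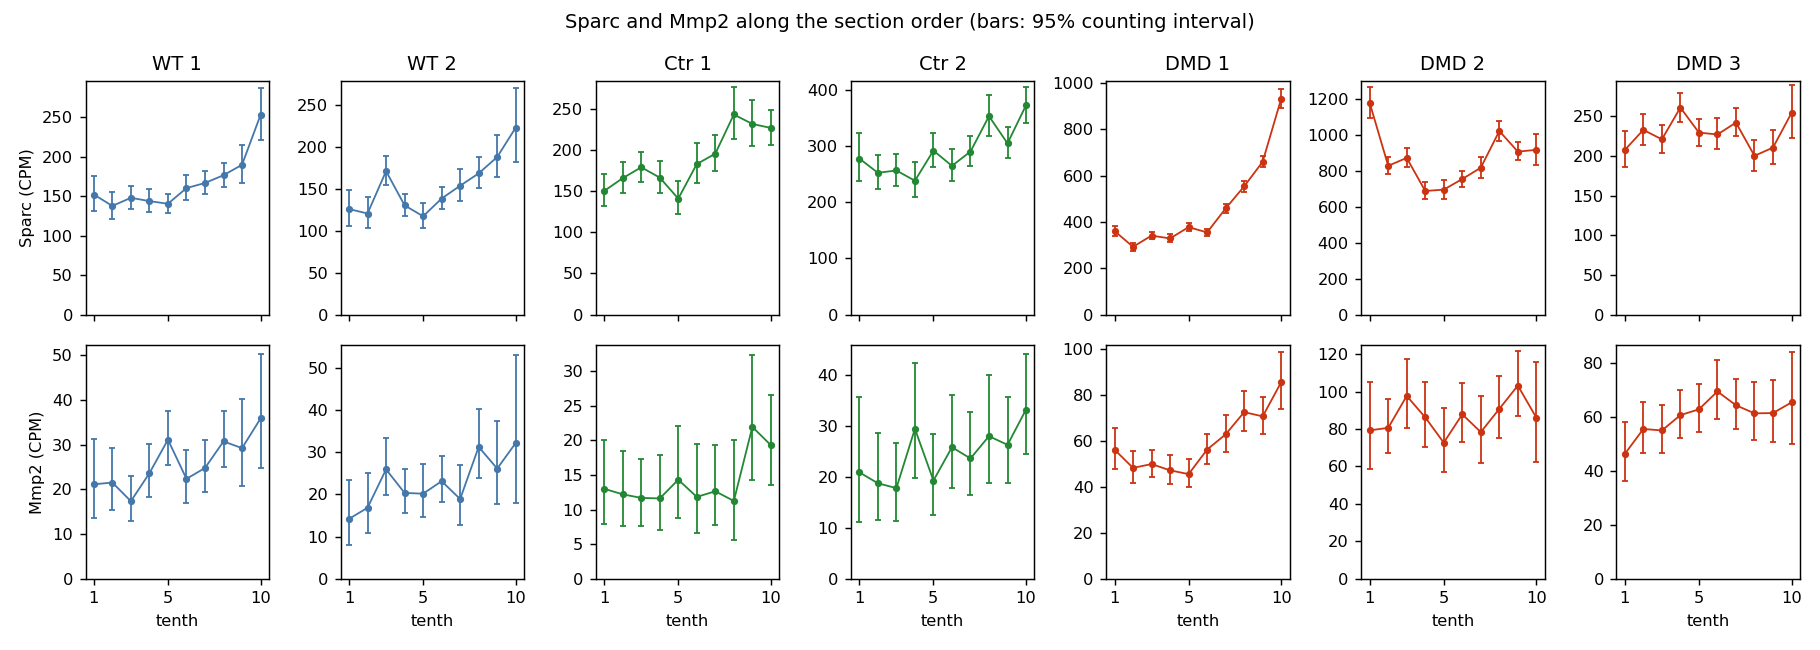
Sparc (top) and Mmp2 (bottom) in unscaled CPM (y axis, from 0, a scale for each panel) along bins of the section order (x axis) in each muscle. Bars are 95% counting intervals. Sparc reached 932 in the last bin of DMD replicate 1, and in DMD replicate 2 it was highest in the first bin, at 1177.

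Tendon markers were also higher toward the end of the order in WT and Ctr. Their sum was 34.6 and 29.4 unscaled CPM in the first bin of the WT muscles and 134.6 and 135.2 in the last, and 3.9 and 25.7 in the first against 19.8 and 40.2 in the last bin of the Ctr muscles. The rise was not steady: the lowest bin lay between the ends, at 3.99 and 9.82 in the WT muscles and 1.16 and 2.28 in the Ctr muscles. Across the 40 bins of WT and Ctr muscles, centred within each muscle, Sparc correlated with the tendon sum at r = 0.77 and with the fibroblast sum at r = 0.76, and Mmp2 at r = 0.58 and r = 0.55. Other sums had correlations of like size: adult fibre genes had r = 0.74 with Sparc and 0.62 with Mmp2, and regenerating-fibre genes r = -0.77 and -0.67. In the DMD muscles the tendon sum went from 72.6 to 59.3, from 110.6 to 98.0 and from 27.2 to 152.7 from first to last bin. Between the ends it fell to 17.9 in bin 5 of DMD replicate 1 and to 14.2 in bin 6 of DMD replicate 2, so both ends were tendon-rich there. The rho of Sparc with the order was 0.84, 0.13 and 0.079 in DMD replicates 1 to 3. Over the 30 DMD bins, Sparc had r = 0.38 with the tendon sum. These points share libraries and depth, and the correlations are descriptions. The part of any of these cell types in the position of Sparc and Mmp2 was not tested.

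Between the middle segment and both ends, 0 of 10 members were called by edgeR, where 0.174% of genes were, and 3 had an unadjusted p under 0.05 (Tnc, Fn1 and Sparc). Fn1 was higher in the middle than the mean of the ends in 6 of 7 muscles (log2 fold 0.37 ± 0.13, edgeR, adjusted p = 0.727). In the DMD muscles its first, middle and last segments were at 26.5, 38.5 and 43.3 CPM, at 44.7, 51.8 and 39.2 CPM and at 17.2, 21.3 and 14.3 CPM. The middle was highest in DMD replicates 2 and 3, and the last segment in DMD replicate 1. Tnc was lower in the middle than the mean of the ends in 7 of 7 muscles, but its WT and Ctr segments held 0 to 3 counts each. In the DMD muscles Tnc was at 2.29, 1.92 and 3.94 CPM, at 3.42, 1.82 and 2.55 CPM, and at 0.76, 0.466 and 0.978 CPM, on 4 to 71 counts. The middle was the lowest of the 3 segments in each of them. Within DMD alone, 0 of 10 members were called for the middle against the ends (0.0993% of genes, 2 members at an unadjusted p under 0.05).

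Whether position mattered differently in DMD was tested as an interaction. For the middle against the ends, 0 of 10 members passed the test of a difference between DMD and Ctr (edgeR, 0.00827% of genes, no member at an unadjusted p under 0.05). For the last against the first segment, 0 of 10 passed between DMD and Ctr (0.0579% of genes, no member at an unadjusted p under 0.05). Between DMD and WT 0 of 10 passed (0.0993% of genes), where 3 members had an unadjusted p under 0.05 (Postn, Timp1 and Mmp14, adjusted p of 0.240 to 0.571).

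Within DMD alone, the last segment was above the first by a positive log2 fold in all 10 members, 0.08 for Timp1 to 0.91 for Mmp14, and in 56.2% of all genes tested. By muscle, the last segment was the higher in 3 of 3 DMD muscles for Mmp2 and Mmp14, in 1 of 3 for Postn and Fn1, and in 2 of 3 for the other members. None was called (edgeR, 1.4% of genes, 5 members at an unadjusted p under 0.05).

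The profile over bins showed 1 muscle apart from the others. In DMD replicate 1 the last bin was the highest for all 10 members. How many of all genes were also highest in that bin was not counted, so this is not shown to be particular to the members. Postn was at 93.7 unscaled CPM there (95% counting interval 81.4 to 107.4) against 29.7 in the remaining bins, a 3.15-fold difference. Tnc was at 12.2 (8.06 to 17.8) against 3.19, Lox at 68.4 (57.9 to 80.2) against 20.999, and Tgfb1 at 19.0 (13.7 to 25.7) against 5.10. For the other members the ratio ran from 1.53 for Mmp2 to 2.75 for Mmp14, with 1.88 for Timp1 and 2.27 for Sparc. Spearman's rho with the order was 0.71 to 0.98 in this muscle for all members except Tnc (0.31). In DMD replicate 2 no member was highest in the last bin, and in DMD replicate 3 Postn alone was, at 15.3 against 6.51 unscaled CPM. Depth differed between these muscles: the median section held 654073, 162467 and 367721 counts in DMD replicates 1 to 3. Members with few counts are poorly measured in single bins, and Tnc was at 0 CPM in the last bin of DMD replicate 2. For Sparc, the member with the most counts, the last bin was 2.27, 1.08 and 1.11 times the remaining bins in DMD replicates 1 to 3.

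**Figure D5:**
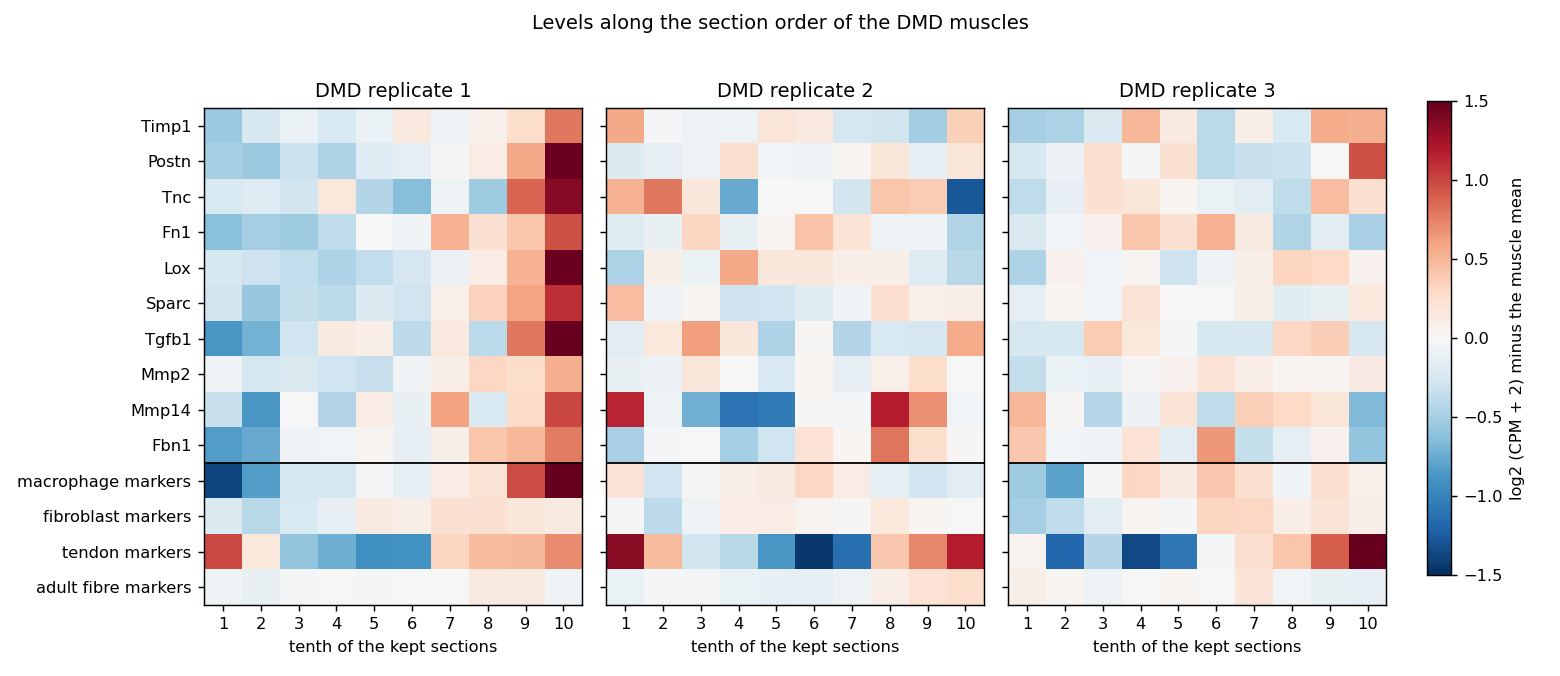
Each cell is log2 (CPM + 2) minus the mean of that muscle's 10 bins (colour, limited to -1.5 and 1.5), for the 10 members and 4 sums of marker genes (rows) along bins of the section order (columns) in the 3 DMD muscles. The last bin of DMD replicate 1 is high in all 10 members and in macrophage markers, and the other DMD muscles lack that column. Those muscles had fewer counts in the median section.

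The macrophage sum was higher along the same muscle, from 508 unscaled CPM in the first bin to 3959 in the last, while in DMD replicates 2 and 3 it ranged from 1035 to 1565 and from 122 to 283 without a peak at the end. In DMD replicate 1 the share of counts from mitochondrial genes went from 32.7% to 22.1%, the fibroblast sum from 1319 to 1677, the regenerating-fibre sum from 264 to 576, its highest bin, and the endothelial sum from 304.0 to 192.5. The tendon sum was 72.6 in the first bin, 17.9 in bin 5 and 59.3 in the last. Over the 30 bins of the DMD muscles, the members' correlation with the macrophage sum was highest for Fn1 (r = 0.75), Tgfb1 (0.70), Sparc (0.70) and Timp1 (0.68) and lowest for Mmp14 (0.27). Some members had correlations of like size with other sums: Postn -0.72 with endothelial, Mmp2 0.57 with fibroblast and Fn1 0.56 with regenerating-fibre markers. Over the 40 bins of WT and Ctr muscles, r with the macrophage sum was 0.30 for Fn1, 0.22 for Tgfb1, 0.11 for Sparc and 0.25 for Timp1. The 30 DMD bins include those of DMD replicate 1, and the correlations with the macrophage sum were not computed without that muscle. The points share libraries and depth, and the part of macrophages in these profiles was not tested.

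The likeness of the members to each other along the order differed with the muscles used. Over the 45 pairs, the median correlation was 0.24 in all 70 bins. It was 0.47 in the 30 bins of the DMD muscles, and 19 pairs were above 0.5, with Sparc and Mmp2 (0.74), Postn and Sparc (0.73) and Postn and Lox (0.70) the closest. It was 0.017 in the 40 bins of the WT and Ctr muscles and 0.022 in the 60 bins left without DMD replicate 1. In DMD replicates 2 and 3 alone, a set chosen after seeing the data, it was 0.053 over 20 bins, with 1 pair above 0.5. Sparc and Mmp2 stayed the closest pair in WT and Ctr (0.63), where most other members had few counts.

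Over all 70 bins of 7 muscles, the genes outside the list whose profiles were most like the mean of the members were Ctsb (r = 0.80), Npm1 (0.77), S100a11 (0.77), Actb (0.77), Vim (0.76), Pfn1 (0.76), Eno1b (0.75) and S100a6 (0.74). Ctsb encodes the lysosomal protease cathepsin B and Vim the filament protein of mesenchymal cells. This list rested on DMD replicate 1: without it, S100a6 was the 1 gene of these 8 still among the 8 most alike, and Ctsb had r = 0.18. For single members, Sparc was most like Col1a2 (0.88), Col1a1 (0.86) and Tmbim6 (0.78). For 8 other members the most alike gene had r of 0.53 to 0.67: Eif5a for Mmp2, Gm9531 for Tnc, Ctsb for Tgfb1, Alox5ap for Timp1, Gm6169 for Lox, Ski for Mmp14, Pttg1ip for Fbn1 and Lgals3 for Postn. In counts this sparse, such values are descriptions.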

How the data were processed

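The deposited tables hold expected counts per gene and cryosection. Per the file headers, the authors ran featureCounts 2.0.1 on the gene strand and split reads with several matches between genes, which left 20.05 to 25.96% of nonzero entries fractional. The submitters' processing notes name STAR 2.7.7a and GRCm38. Per the labels' protocols, each section carried its own barcode and reads carried molecular identifiers; whether reads were collapsed by them is not given in the sources used here. Ctr and DMD were counted with another annotation than WT, and the 53083 genes that agreed in name and length between the annotations were used. Exons of Tnc, Fn1, Lox and Fbn1 overlap a gene on the opposite strand, and those of no member overlap one on the same strand.

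Sections with at least 1000 counts and 20% of their muscle's median were kept and summed per muscle, per segment (3) and per bin (10) of the section order, and sums were rounded. The muscle was the replicate. Tests were edgeR 4.0.16 (R 4.3.3) quasi-likelihood F tests with filterByExpr, TMM factors (0.669 to 1.41) and Benjamini-Hochberg adjustment over all genes tested. Whole muscles were fitted by group, and segments with muscle as a block. The script was tested on simulated data. Standard errors were taken from F as the absolute log2 fold over its root and are approximate. CPM is scaled to 1000000 counts, by TMM for levels and segments and unscaled for marker sums and bins. Likeness used log2 (CPM + 2) centred within muscles. Alternatives were DESeq2 1.42.0 (size factors, Wald test), limma 3.58.1 on equally weighted sections, no filter, a replicate block, only the compared groups, all sections, narrower end segments (the outer 20% at each end), no mitochondrial genes, and leaving out each muscle.

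Members and lists were chosen with earlier results of these data known. All members are named. In each list up to 4 called genes with the largest absolute log2 fold in DMD against Ctr and a mean of at least 5 CPM are named, with other genes named only where a count was small. By likeness, 8 genes are named for the mean profile and up to 3 per member. The likeness result of Fn1 is not reported here. Lists of smooth-muscle and pericyte genes (0 higher and 2 lower of 7), adult fibre genes (0 of 8) and mitochondrial genes (1 lower of 9, mt-Nd5) were also counted in DMD against Ctr. Promoters are from the RefSeq table.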

Additional observations from a re-analysis of the deposited data

Results flagged for a closer look

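For a few members the groups differed along the section order in opposite ways in every muscle. All values are mean differences in TMM-scaled CPM. Opposite signs in every muscle of the groups compared were not particular to members. From first to last segment they were found in 6.31% of 12085 genes for DMD and Ctr (0 members), 6.57% for DMD and WT (1 member) and 10.6% for WT and Ctr (2 members). For the middle against the ends the shares were 5.36%, 5.07% and 11.2%, with 1 member in each.

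Postn was lower in the last than in the first segment in both WT muscles (mean difference -3.53) and higher in both Ctr muscles (0.162). In the middle against the mean of the ends it was -0.745 in WT and 0.554 in Ctr. Tgfb1 went the same ways from first to last segment, by -0.41 in WT and 0.337 in Ctr. From first to last segment, Postn went from 2.05 to 1.71 CPM in WT replicate 1 and from 7.73 to 1.01 CPM in WT replicate 2. The difference between WT and Ctr was not tested. The Ctr segments held 1 to 8 counts of Postn, and the WT and Ctr segments held 1 to 5 counts of Tgfb1.

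Mmp14 was higher in the last segment in all 3 DMD muscles (1.83) and lower in both WT muscles (-0.606). The test of this difference between DMD and WT did not pass (edgeR, adjusted p = 0.571), and the WT segments held 0 to 10 counts. Fbn1 was lower in the middle than the mean of the ends in all 3 DMD muscles (-1.56). It was above that mean in both Ctr muscles (0.263) and both WT muscles (1.46). In every DMD and Ctr muscle the middle lay between the ends, so none had a dip or peak there. In DMD the first, middle and last segments were at 14.4, 16.9 and 21.7 CPM, at 14.8, 15.6 and 22.6 CPM, and at 9.25, 7.69 and 6.85 CPM. The tests of the difference did not pass against Ctr or against WT (edgeR, adjusted p of 1 in both).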

How the results depend on the processing

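Over 372 values of single members under an alternative setting, 304 kept their direction and side of the threshold, 31 lost a call, 37 gained one and 0 changed sign. For the 27 named genes of other lists against Ctr, 303 of 405 values stayed called, the others lost the call and 0 changed sign. Leaving out 1 muscle moved counts of genes from 56 to 3425 and of members from 1 to 8 for DMD against Ctr, from 68 to 3595 and 0 to 9 for DMD against WT, and from 2 to 513 and 0 to 0 for WT against Ctr. For the middle against the ends the counts were 12 to 28 genes and 0 members, for the last against the first segment 99 to 496 genes and 0 to 2 members, for the difference between DMD and Ctr in the middle 0 to 2 genes and 0 members, and within DMD 5 to 14 genes and 0 members. Without a filter on low counts, DMD against Ctr had 2999 genes and 10 members, DMD against WT 3208 and 10, WT against Ctr 860 and 2, and the middle 42 genes, with 3 for its difference between DMD and Ctr and 29 within DMD. With only the compared groups, DMD against Ctr had 683 genes and WT against Ctr 586. Fbn1 against Ctr was then at an adjusted p of 0.0508 (edgeR). With sections weighted equally (limma), the counts were 641 for DMD against Ctr, 3660 genes and 9 members for DMD against WT, and 162 for WT against Ctr. That setting moved the median log2 fold of all genes to 0.23, 0.56 and -0.30, and without a filter the medians against Ctr and WT were 0.25 and 0.24. The share of calls higher in DMD was 56.6% against Ctr and 54.4% against WT, 82.4% and 97.1% with equal weights, and 65.6% and 67.8% without a filter. It was 28.6% without Ctr replicate 1. DESeq2's Wald test gave 475 for WT against Ctr. With all sections, the last against the first segment had 2 members (Mmp2 and Sparc), the difference between DMD and Ctr in the middle 2 genes and the middle within DMD 3. With the outer 20% at each end as end segments these were 219 genes and 2 members, and 7 within DMD. The 8 genes named by likeness shared 3 with the 8 from 5 bins, from a pseudocount of 10 and from the DMD muscles alone, and 1 with those from WT and Ctr muscles. That last set, and the one without DMD replicate 1, were chosen after seeing the data. The causes were not tested.

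Deviations of same-numbered muscles from their group means had r of 0.006 to 0.189 between groups. With 2 muscles in WT and in Ctr, the deviations within each of these groups mirror each other, so this check cannot exclude pairing. The labels do not give the numbers as pairs, and they were not taken as pairs. With a replicate block, in which DMD replicate 3 has its own term, DMD against Ctr had 3889 genes and 10 members, DMD against WT 4063 and 9, and WT against Ctr 798 and 2. Depth limits Timp1, Postn, Tnc, Tgfb1 and Mmp14 in WT and Ctr, where a muscle held 0 to 51 counts of each.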
